A study of Mus musculus with 9 samples.

Results

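Voltage-gated sodium channels of neurons were described in bulk RNA of the prelimbic cortex, an area of the medial prefrontal cortex with a part in pain control. The family was taken by name from the deposited table: 7 of its 55335 gene symbols were members, namely the alpha subunits Scn1a, Scn2a, Scn3a and Scn8a and the beta subunits Scn2b, Scn3b and Scn4b. All 7 were detected in all 9 libraries, with between 3055 counts (the lowest, of Scn3a) and 28854 counts (the highest, of Scn2a), and all 7 passed the filter on low counts. The 9 mice formed 3 groups of 3. R-HNK mice had spared nerve injury (SNI) and were treated with 10 mg/kg of R-HNK, an R form of the ketamine metabolite hydroxynorketamine. SNI mice had the same injury and were treated with saline, and sham mice were the sham controls, also treated with saline. In this injury, a common model of nerve pain in rodents, part of the sciatic nerve's branches are cut and the remainder is spared. The cortex was taken on day 14 after surgery in every group, so no other time was sampled. Strain, age and the interval between treatment and tissue collection are not given in the sources used here, and no group received R-HNK without injury.

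A voltage-gated sodium channel is built on 1 large alpha subunit, which forms the pore, senses voltage and inactivates within milliseconds, together with small beta subunits that cross the membrane once and tune gating, surface delivery and cell adhesion. These channels start the action potential at the axon initial segment and carry it along the axon. In the rodent cortex, the channel of Scn8a is concentrated at the axon initial segment and at nodes of Ranvier. The channel of Scn2a works in excitatory neurons, that of Scn1a is known above all from parvalbumin interneurons, and Scn3a is mainly a gene of the developing brain. Scn3a is also known from rat sensory neurons, where it is induced by injury of the nerve.

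The alpha subunits share an inactivation gate, a short stretch of the loop between the third and the fourth domain that is needed for fast inactivation. The coding sequence around it is shown for Scn8a, because this gate is what ends the sodium current that the family carries. The capitals mark the codons for isoleucine, phenylalanine and methionine of the gate motif. The sequence is 5′ to 3′ on the strand of the gene, from a GENCODE M21 transcript on GRCm38.
Scn8a: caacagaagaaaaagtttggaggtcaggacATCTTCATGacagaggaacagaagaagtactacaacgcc
In Scn8a these 69 bases ran across the junction of exon 24 and exon 25 of 27 exons. The capitals lay in exon 25, in its part at chr15:101033478-101033531 on the plus strand.

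Scn3a, Scn2a and Scn1a are neighbours on mouse chromosome 2, at chr2:65457118-65567627, chr2:65620771-65767447 and chr2:66270778-66440840, while Scn8a lies at chr15:100869858-101045938. The beta subunits lie on chromosome 9, Scn3b at chr9:40269217-40291618 and, side by side on the plus strand, Scn2b at chr9:45117782-45130070 and Scn4b at chr9:45138395-45154152. No member had an exon that overlapped another gene. Of all windows of 50 bases along its longest coding transcript, Scn3a had 8.53% that also occurred in transcripts of other genes, Scn2a 7.76% and Scn1a 5.48%. The share was 1.02% for Scn2b, 0.0527% for Scn8a and 0% for Scn3b and Scn4b. The sources used here do not say how the authors' counting treated reads from such windows, so the levels of Scn1a, Scn2a and Scn3a carry that uncertainty. The table gives 1 number per gene, so splice forms, such as the neonatal and adult exons of these channels, were summed.

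Levels are CPM, each count scaled to a common library total with TMM factors, and between genes they are compared only per kilobase of exon (the union of all annotated exons). On that scale Scn2b, a beta subunit that is bound to the alpha subunit by a disulfide bond, had the highest mean level over the 9 libraries, 66.3 CPM per kilobase. It was above every other member in all 9 libraries. Scn2a followed with 29.7, Scn4b with 28.6, Scn8a with 25.5 and Scn3b with 23.4 CPM per kilobase. These 4 were not separated from their neighbours in the order: Scn2a was above Scn4b in 6 of 9 libraries, Scn4b above Scn8a in 3 of 9 and Scn8a above Scn3b in 7 of 9. Scn1a at 12.5 and Scn3a at 5.17 CPM per kilobase were the lowest and next to each other, with Scn3b above Scn1a, and Scn1a above Scn3a, in 9 of 9 libraries. With the length of the longest transcript in place of the exon union, Scn4b stood below Scn8a and Scn3b.

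The members differed in how much they varied over the 9 mice, with differences between the groups included. The SD of log2 CPM over the 9 libraries was 0.63 for Scn4b, 0.25 for Scn1a and 0.21 for Scn3a. It was 0.10 for Scn3b and for Scn8a, and 0.07 for Scn2a and for Scn2b. Among 6369 genes whose mean log2 CPM was 5 or more and whose median SD was 0.105, Scn4b had a larger SD than 99.6%, Scn1a than 95.1% and Scn3a than 91.1%. Scn2a and Scn2b stood near the quiet end, above 15.4% and 14.1% of these genes. Scn4b, Scn1a and Scn3a thus varied more than most genes of this set, and the other members did not.

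**Figure D1:**
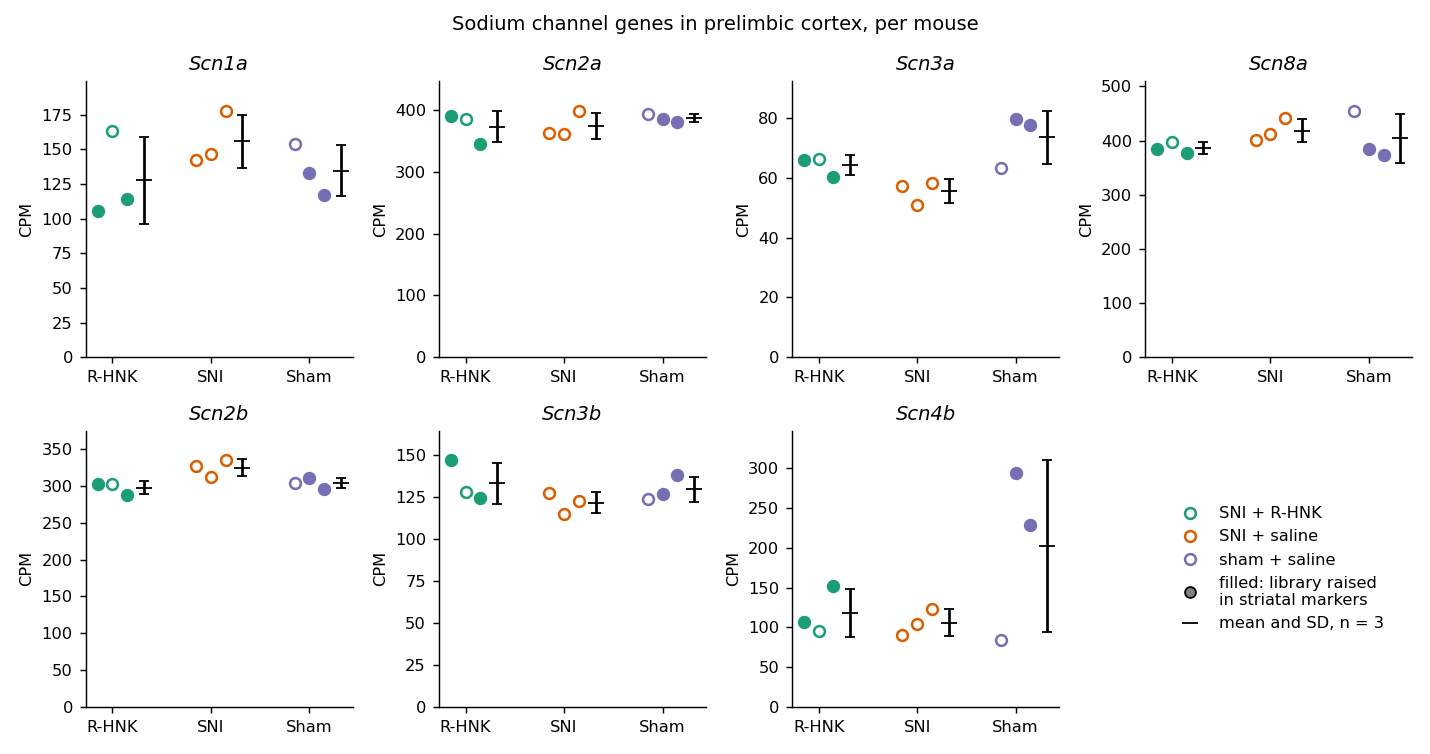
Level of each of the 7 sodium channel genes in CPM (y axes, from 0) in each mouse, by group (R-HNK, SNI, Sham); bars are the mean and SD of 3 mice, and filled points are the 4 libraries raised in striatal markers. Scn3a was lower in the 3 SNI mice (50.9 to 58.3 CPM) than in any other mouse, and Scn4b was far above the rest in 2 sham mice (294.6 and 228.7 CPM).

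Across the whole table, 233 of 21765 tested genes (1.07%) differed between SNI and sham mice, 26 (0.119%) between R-HNK and SNI mice and 1 (0.00459%) between R-HNK and sham mice, at a Benjamini-Hochberg adjusted p under 0.05 in edgeR's quasi-likelihood test. Of the 7 sodium channel genes, 0 passed in each of the 3 comparisons. At an unadjusted p under 0.05, 1 member stood out between SNI and sham mice (16.6% of all genes did), 1 between R-HNK and SNI mice (7.47%) and 0 between R-HNK and sham mice (3.53%). DESeq2 called 1, 0 and 0 members in the same order of comparisons, and limma-voom called 1, 0 and 0. The member that they called between SNI and sham mice was Scn3a. The median log2 fold change of the 7 members was -0.05 for SNI against sham mice, -0.01 for R-HNK against SNI mice and -0.07 for R-HNK against sham mice, beside -0.02, 0.01 and -0.01 over all tested genes.

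The libraries differed in the levels of cell type markers. Genes that mark medium spiny neurons of the striatum, a region beneath the cortex, were raised in 4 libraries: R-HNK replicates 1 and 3 and sham replicates 2 and 3. Summed over 15 markers, these genes measured 536 to 1495 CPM in R-HNK mice, 512 to 578 CPM in SNI mice and 564 to 2250 CPM in sham mice. Of the 15, Isl1 alone was at 0, in 3 of the libraries. None of the 15 passed in any comparison, although 12 of them had an unadjusted p under 0.05 for SNI against sham mice, where DESeq2 called 7 and limma-voom called 0. The cortical markers Slc17a7, the vesicular glutamate transporter of excitatory cortical neurons, and Neurod6 were present in every library, and Slc17a7 ranged between 1477 and 2089 CPM. Of the 9 markers of excitatory cortical neurons, 1 was higher in SNI than in sham mice in edgeR, Neurod6 (0.70, adjusted p of 0.00901), while 5 had an unadjusted p under 0.05 and DESeq2 and limma-voom each called 4. Their summed level was 5493 to 5637 CPM in R-HNK mice, 5739 to 6330 CPM in SNI mice and 4901 to 6070 CPM in sham mice. Of 7 markers of meningeal and perivascular fibroblasts, 3 were lower in SNI than in sham mice in edgeR. In that comparison 6 of the 7 had an unadjusted p under 0.05, and DESeq2 called 6 and limma-voom 3. The 7 summed to 36.4 to 49.7 CPM in R-HNK mice, 26.6 to 31.0 CPM in SNI mice and 43.1 to 64.4 CPM in sham mice. Lum was at 0 in sham replicate 2 and SNI replicate 3. The part of these markers in the levels of the members was not tested. No SNI library was raised in striatal markers, so each comparison with SNI mice also compares libraries that differ in these markers. In bulk tissue, fewer cells of a type and less RNA per cell cannot be told apart. The labels name no batch, and totals ran between 53624337 and 73586375 counts per library.

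Scn3a, the alpha subunit of the developing brain, came closest to a difference with injury. It measured 57.3, 50.9 and 58.3 CPM in the SNI mice, against 63.3, 79.8 and 77.7 CPM in the sham mice. Every SNI mouse was below every sham mouse. Groups that did not overlap were common in this comparison, at 10.9% of all tested genes in each direction, and among the members 1 was lower (Scn3a) and 1 higher (Scn2b) in this way. The means were 55.5 ± 4.02 CPM in SNI mice and 73.6 ± 8.97 CPM in sham mice (SD, n = 3 each), and the fitted log2 fold change was -0.41 ± 0.09 (SE; 95% interval -0.61 to -0.21). Its unadjusted p was 0.000756, and the adjusted p of edgeR over all genes was 0.0568, which did not pass.

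The call on Scn3a turned on the choices of the analysis. It passed with upper quartile scaling (adjusted p of 0.0498), with no filter on low counts (0.0328), without sham replicate 1 (0.00515), in DESeq2 (0.00481) and in limma-voom (0.00760). It did not pass with the replicate number as a block, at an adjusted p of 0.104. With the striatal marker score as a covariate the log2 fold change was -0.30 and the adjusted p 0.434, and when the 4 libraries with raised striatal markers were left out it was -0.18 with an adjusted p of 0.771. That last fit had 1 sham library, sham replicate 1, which was the lowest sham mouse for Scn3a. Sham replicate 1 was also the 1 sham mouse not raised in striatal markers. The fit without it thus compared only raised sham libraries with SNI libraries, none of which was raised. Of the 4 raised libraries, 3 were among the 4 highest for Scn3a, with sham replicates 2 and 3 at the top (79.8 and 77.7 CPM). The other, R-HNK replicate 3, was among the 4 lowest (60.5 CPM). Over all 18 alternatives the log2 fold change lay between -0.49 and -0.18.

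In R-HNK mice Scn3a measured 66.0, 66.4 and 60.5 CPM, with a mean of 64.3 ± 3.33 CPM (SD, n = 3), against the SNI values above. All 3 R-HNK mice were above all 3 SNI mice, as were those of 7.15% of all tested genes in that direction. The log2 fold change was 0.21 ± 0.09 (SE; 95% interval 0.01 to 0.41), with an unadjusted p of 0.0398 and an adjusted p of 0.643 in edgeR. Against sham mice the R-HNK mice gave -0.19 ± 0.09 (SE; 95% interval -0.39 to 0.01), and the lowest sham mouse lay within the range of the R-HNK mice. Both comparisons with SNI mice share the same 3 SNI libraries, so the opposite signs are not independent of each other.

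Most markers of immature neurons, in which Scn3a is typically expressed, were lower in SNI mice as well. Dcx, a microtubule protein of migrating neurons, measured 51.1, 70.1 and 47.2 CPM in R-HNK mice, 37.3, 36.5 and 41.3 CPM in SNI mice, and 67.3, 62.4 and 62.7 CPM in sham mice. Of the 9 markers on the list, 7 were lower in SNI than in sham mice at an adjusted p under 0.05 in edgeR. In the same test, 3 were higher in R-HNK than in SNI mice. DESeq2 called 8 and limma-voom 9 for SNI against sham mice, and 7 and 4 for R-HNK against SNI mice. None of the 9 passed between R-HNK and sham mice, where 0 had an unadjusted p under 0.05 and DESeq2 and limma-voom called 0. Their summed level was 578 to 690 CPM in R-HNK mice, 579 to 596 CPM in SNI mice and 638 to 666 CPM in sham mice, and none of them was at 0 in any library. Tubb3, a neuronal tubulin singled out after its values were seen, made up 355 to 452 CPM of that sum and ran the other way. Its log2 fold change was 0.20 for SNI against sham mice and -0.14 for R-HNK against SNI mice, neither past the threshold in edgeR. The 9 calls of limma-voom for SNI against sham mice included Tubb3. The part of these markers in the level of Scn3a was not tested.

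**Figure D2:**
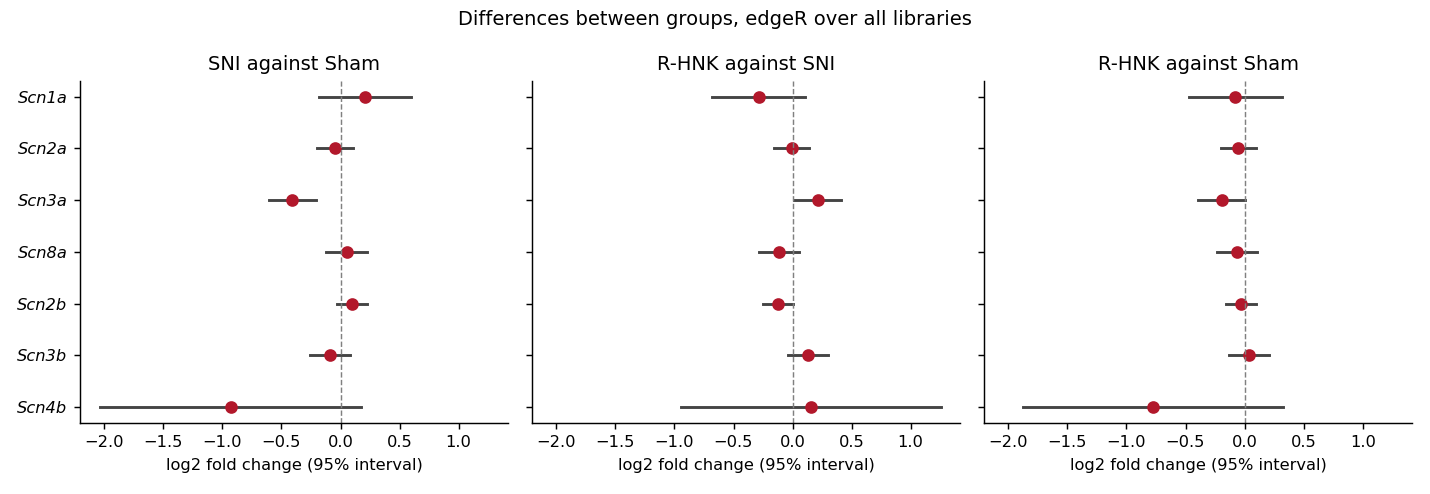
Log2 fold change of each member with its 95% interval (x axes) in the 3 comparisons (SNI against Sham, R-HNK against SNI, R-HNK against Sham), from edgeR's fit over 9 libraries. The interval of Scn3a lies below 0 for SNI against sham mice (-0.61 to -0.21), and Scn4b has the widest interval in each panel.

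Scn8a, whose channel dominates at the mature axon initial segment, measured 384.0, 397.3 and 376.6 CPM in R-HNK mice, 401.1, 412.5 and 441.9 CPM in SNI mice, and 455.3, 383.9 and 372.8 CPM in sham mice. Each R-HNK mouse was below each SNI mouse, as was the case for 6.59% of all tested genes, while SNI and sham mice overlapped. For Scn8a the log2 fold change was 0.05 ± 0.08 (SE; 95% interval -0.12 to 0.22) for SNI against sham mice and -0.12 ± 0.08 (SE; 95% interval -0.29 to 0.05) for R-HNK against SNI mice. The adjusted p in edgeR was 0.799 and 0.753. A change of Scn8a by more than 0.29 on the log2 scale lay outside both intervals.

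Scn2a, the channel of excitatory neurons, had the narrowest spread of the alpha subunits. It measured 389.7, 384.8 and 344.7 CPM in R-HNK mice, 363.0, 361.3 and 399.1 CPM in SNI mice, and 394.2, 385.3 and 381.1 CPM in sham mice. The 3 groups overlapped. Scn2a had a log2 fold change of -0.05 ± 0.07 (SE; 95% interval -0.20 to 0.10) for SNI against sham mice and -0.01 ± 0.07 (SE; 95% interval -0.15 to 0.14) for R-HNK against SNI mice. The adjusted p in edgeR was 0.784 and 0.992, and the highest of the 9 libraries was 1.16 times the lowest.

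Scn1a, the channel of fast-spiking interneurons, measured 105.3, 163.4 and 113.9 CPM in R-HNK mice, 142.4, 146.7 and 178.0 CPM in SNI mice, and 153.8, 132.8 and 117.1 CPM in sham mice. SNI mice overlapped with both of the other groups. Scn1a had a log2 fold change of 0.21 ± 0.17 (SE; 95% interval -0.18 to 0.60) for SNI against sham mice and -0.29 ± 0.17 (SE; 95% interval -0.68 to 0.10) for R-HNK against SNI mice, with an adjusted p in edgeR of 0.597 and 0.725. These intervals are wide enough to hold differences in either direction. For SNI against sham mice, leaving out 1 library gave 0.11 to 0.33, with 0.11 without SNI replicate 3, 0.12 without sham replicate 3 and 0.33 without sham replicate 1. For R-HNK against SNI mice it gave -0.51 to -0.17, with -0.51 without R-HNK replicate 2, -0.17 without R-HNK replicate 1 and -0.18 without SNI replicate 3.

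Scn1a and Scn8a were lower in the libraries raised in striatal markers than in the others. The 4 libraries raised in striatal markers were the 4 lowest of the 9 for Scn1a, at 105.3 to 132.8 CPM against 142.4 to 178.0 CPM in the other 5. They were also the 4 lowest for Scn8a, at 372.8 to 384.0 CPM against 397.3 to 455.3 CPM. How many of all tested genes split in this way was not counted. These 4 libraries also had the highest sums for myelin and oligodendrocyte markers, at 5125 to 7134 CPM against 3401 to 4830 CPM. The same held for oligodendrocyte precursors and endothelial cells. These libraries had the lowest sums for excitatory cortical neurons, at 4901 to 5594 CPM against 5637 to 6330 CPM, and for peripheral sensory neurons. The sums of the remaining lists overlapped. The part of these markers in Scn1a and Scn8a was not tested. With the striatal score as a covariate, the log2 fold change of SNI against sham mice changed sign for Scn1a (-0.10) and Scn8a (-0.08). Neither passed. Pvalb, the marker of parvalbumin interneurons, measured 20.0, 33.9 and 25.7 CPM in R-HNK mice, 35.5, 42.4 and 38.2 CPM in SNI mice, and 29.4, 22.8 and 16.0 CPM in sham mice. None of the 9 markers of these interneurons passed in any comparison, although DESeq2 and limma-voom each called 2 for SNI against sham mice, where 5 had an unadjusted p under 0.05. Those 5 went both ways: Pvalb, Kcnc2 and Lhx6 were higher in SNI mice (0.77, 0.29 and 0.36 on the log2 scale) and Gad1 and Erbb4 lower (-0.38 and -0.21), and these genes are named because of their values. Gad1, which other inhibitory neurons also express, made up 256 to 387 CPM of the sum. The summed level of the 9 was 692 to 877 CPM in R-HNK mice, 788 to 861 CPM in SNI mice and 821 to 928 CPM in sham mice, with no marker at 0, and their part in Scn1a was not tested.

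**Figure D3:**
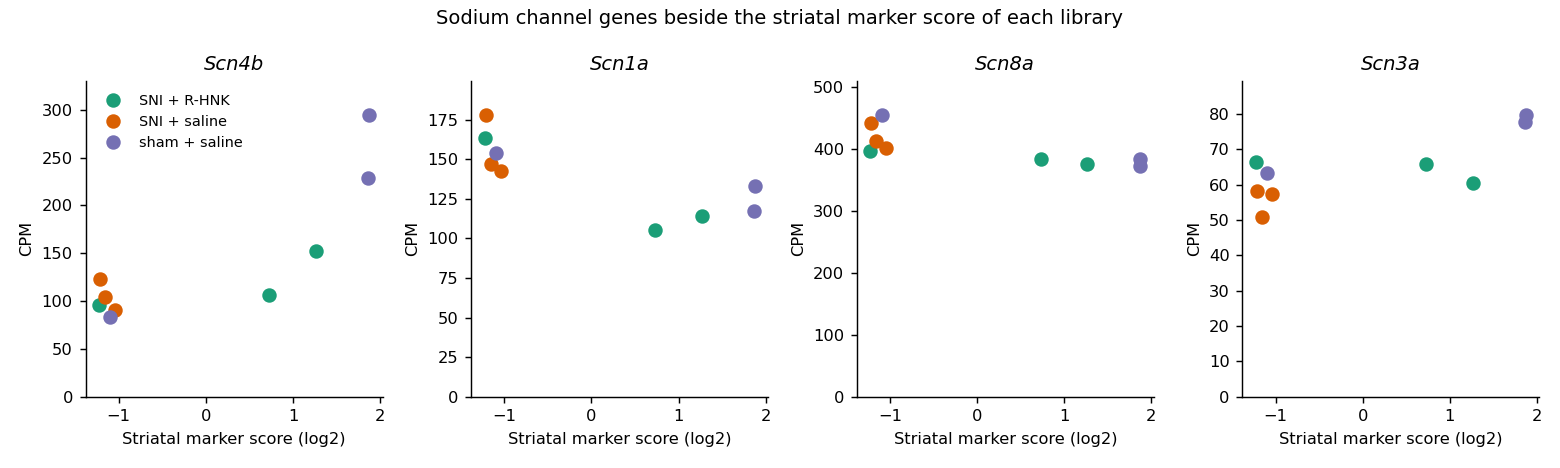
Level of sodium channel genes in CPM (y axes, from 0) against the striatal marker score of the same library (x axes, log2 scale, mean of 15 centred markers), with 1 point per mouse coloured by group (R-HNK, SNI, Sham). The 4 libraries on the right, of R-HNK and sham mice, hold the 4 lowest values of Scn1a (105.3 to 132.8 CPM) and the highest of Scn4b (294.6 CPM).

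Scn4b, a disulfide-bound beta subunit that is abundant in the striatum and is known for resurgent sodium current in cerebellar neurons, varied most. It measured 106.3, 95.8 and 152.7 CPM in R-HNK mice, 90.4, 104.4 and 123.6 CPM in SNI mice, and 83.8, 294.6 and 228.7 CPM in sham mice. The sham mice held both the lowest library and the 2 highest ones, so the groups overlapped and the span over the 9 libraries was 3.51-fold. The means were 118.2 ± 30.3 CPM in R-HNK mice, 106.1 ± 16.7 CPM in SNI mice and 202.4 ± 107.8 CPM in sham mice (SD, n = 3 each). Its log2 fold change was -0.93 ± 0.46 (SE; 95% interval -2.04 to 0.18) for SNI against sham mice, with an adjusted p of 0.380 in edgeR, and 0.16 ± 0.46 (SE; 95% interval -0.94 to 1.26) for R-HNK against SNI mice, with an adjusted p of 0.965.

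The 2 sham mice with high Scn4b were those raised in striatal markers. Drd2, the dopamine receptor of striatal neurons, measured 17.5, 1.27 and 24.6 CPM in R-HNK mice, 1.5, 1.72 and 1.55 CPM in SNI mice, and 1.23, 44.0 and 41.8 CPM in sham mice. Of the 4 raised libraries, 3 were among the 4 highest for Scn4b. With the striatal score as a covariate the log2 fold change of Scn4b for SNI against sham mice was 0.08. Without the 4 raised libraries it was 0.35, so its sign turned in both. The fit without these 4 had 1 sham library, sham replicate 1, which was the lowest of the 9 libraries for Scn4b. Without sham replicate 1, the 1 sham mouse that was not raised, the log2 fold change was -1.29 and passed with an adjusted p of 0.0308 in edgeR.

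Scn2b, the disulfide-bound partner subunit of cortical channels, measured 303.1, 302.0 and 288.0 CPM in R-HNK mice, 327.1, 312.7 and 334.8 CPM in SNI mice, and 303.8, 310.4 and 296.5 CPM in sham mice. All 3 SNI mice were above all mice of the other groups, by a small margin. Of all tested genes, 10.9% were higher in SNI than in sham mice without overlap. Those lower in R-HNK than in SNI mice without overlap made up 6.59%. Its log2 fold change was 0.10 ± 0.06 (SE; 95% interval -0.03 to 0.23) for SNI against sham mice, with an adjusted p of 0.440 in edgeR. For R-HNK against SNI mice it was -0.13 ± 0.06 (SE; 95% interval -0.25 to 0.00), with an adjusted p of 0.678. Over the 18 alternatives the first lay between 0.08 and 0.13 and the second between -0.15 and -0.10.

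Scn3b, a beta subunit that binds without a disulfide bond, measured 146.7, 127.9 and 124.4 CPM in R-HNK mice, 127.2, 114.9 and 122.4 CPM in SNI mice, and 123.4, 126.7 and 137.9 CPM in sham mice. The groups overlapped in each comparison. The log2 fold change was -0.09 ± 0.08 (SE; 95% interval -0.26 to 0.08) for SNI against sham mice and 0.13 ± 0.08 (SE; 95% interval -0.04 to 0.30) for R-HNK against SNI mice. The adjusted p in edgeR was 0.610 and 0.715.

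Between R-HNK and sham mice, the groups overlapped for all 7 members, while 4.43% of all tested genes were higher and 4.42% lower without overlap. The log2 fold change was -0.07 ± 0.08 for Scn8a, -0.05 ± 0.07 for Scn2a, -0.08 ± 0.17 for Scn1a and -0.03 ± 0.06 for Scn2b (SE). For Scn3b it was 0.04 ± 0.08 (SE; 95% interval -0.13 to 0.21), and for Scn4b -0.78 ± 0.46 (SE; 95% interval -1.88 to 0.33). Each of the 7 had an adjusted p of 0.99998 in edgeR. The intervals of Scn2a (-0.20 to 0.10) and Scn2b (-0.16 to 0.10) were the narrowest and leave room for small differences only, whereas that of Scn4b leaves room for large ones.

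**Figure D4:**
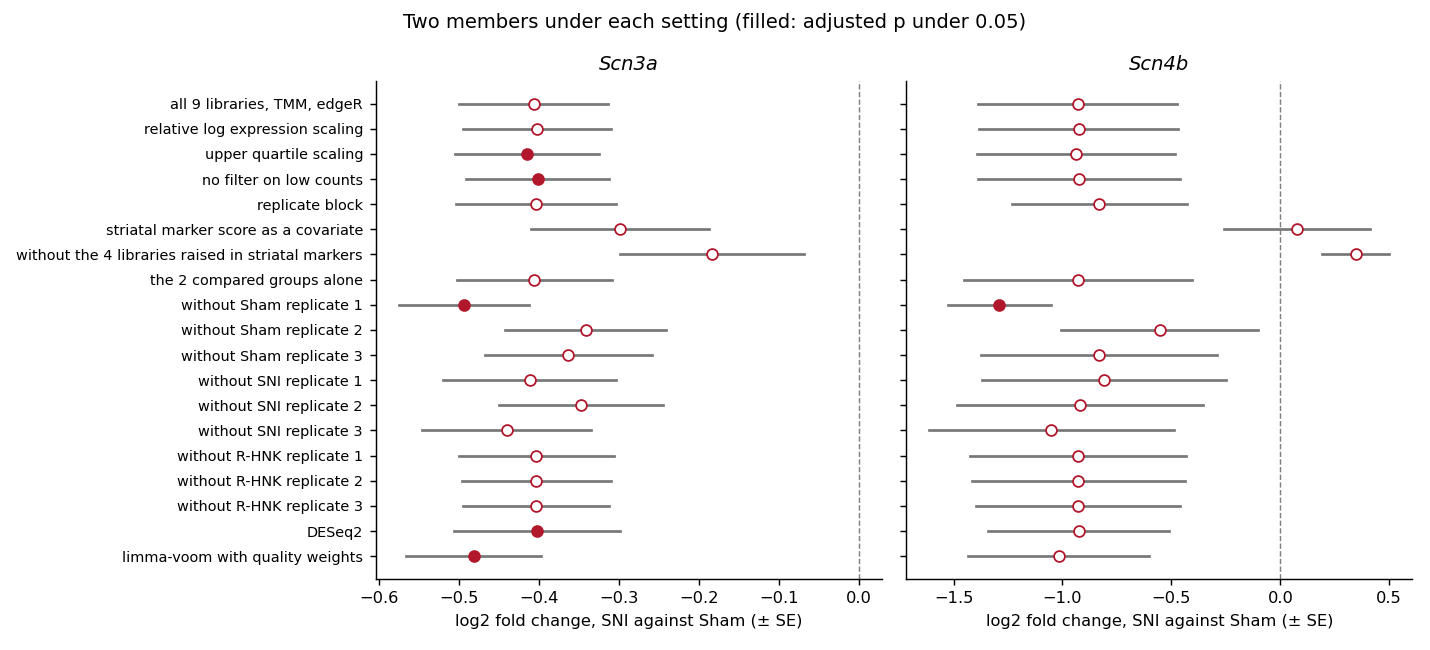
Log2 fold change for SNI against sham mice (x axes, ± SE where the fit gives one) of Scn3a and Scn4b under each setting (rows), filled where the adjusted p was under 0.05. Scn3a stays below 0 throughout (-0.49 to -0.18), while Scn4b crosses to 0.08 and 0.35 when striatal markers are a covariate or the 4 raised libraries are left out. The fit without the 4 raised libraries has 1 sham library, sham replicate 1, the lowest of all libraries for Scn4b.

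The makeup of the alpha subunits within a library does not depend on how libraries are scaled. Of the summed CPM per kilobase of the 4 alpha genes, which lay between 66.0 and 80.0 over the 9 libraries, Scn2a made up 41.7% ± 2.00 in R-HNK mice, 39.6% ± 0.401 in SNI mice and 41.1% ± 1.64 in sham mice (SD, n = 3 each). Scn8a made up 34.8% ± 1.38, 35.7% ± 0.710 and 34.6% ± 1.84 in the same groups, and Scn1a 16.2% ± 3.00, 18.7% ± 1.08 and 16.3% ± 1.30. So Scn2a and Scn8a together held the bulk of alpha RNA in every mouse. Scn3a made up 7.60%, 7.07% and 7.35% in R-HNK mice, 6.45%, 5.69% and 5.85% in SNI mice, and 6.45%, 8.78% and 8.87% in sham mice. The highest SNI mouse and the lowest sham mouse were level at the third digit.

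The share of Scn3a was 2.04 percentage points lower in SNI than in sham mice and 1.34 points higher in R-HNK than in SNI mice. Each had a two-sided exact permutation p of 0.1, the smallest that 3 mice against 3 allow, and 0.3 after Benjamini-Hochberg adjustment over 12 tests. The share of Scn1a for SNI against sham mice (2.46 points higher) and that of Scn2a for R-HNK against SNI mice (2.10 points higher) had the same exact p of 0.1 and adjusted p of 0.3. The other 8 tests had an exact p of 0.3 or more. In a design of this size, none could have passed.

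**Figure D5:**
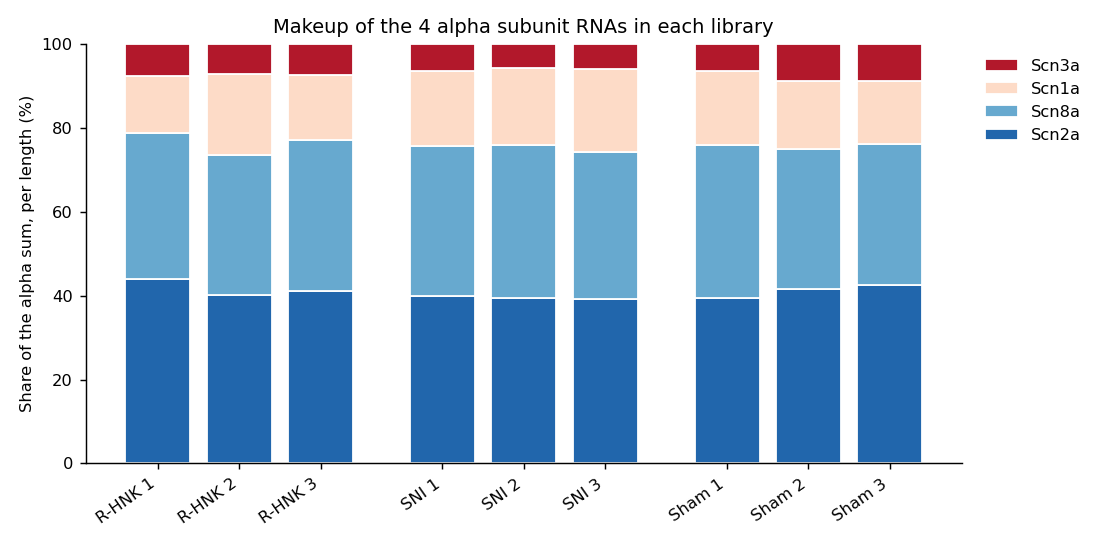
Share of each alpha subunit in the summed CPM per kilobase of the 4 alpha genes (y axis, percent) in each of the 9 libraries (x axis, R-HNK, SNI and Sham mice). Scn2a (39.2% to 43.9%) and Scn8a (33.4% to 36.7%) are the largest parts in every library, and Scn3a (5.69% to 8.87%) the smallest.

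Sodium channels of peripheral nerve and muscle were read beside the members, and were scarce. Per kilobase, Scn7a stood at 0.849, Scn9a at 0.400 and Scn10a at 0.0459 CPM. Scn9a, a channel of pain-sensing neurons, measured 4.86, 3.90 and 7.23 CPM in R-HNK mice, 4.59, 3.35 and 3.33 CPM in SNI mice, and 4.19, 7.19 and 7.31 CPM in sham mice. The 4 libraries raised in striatal markers were the highest for Scn9a, at 4.86 to 7.31 CPM against 3.33 to 4.59 CPM in the rest. How many of all tested genes split so was not counted. The SNI and sham mice overlapped. The log2 fold change was -0.73 ± 0.26 (SE), with an unadjusted p of 0.0166 and an adjusted p of 0.194 in edgeR. Scn7a gave 0.48 ± 0.37 (SE) in the same comparison with an adjusted p of 0.569. Scn4a, the muscle channel, had 0 counts in all 9 libraries, and Scn11a had 0 to 18 counts and was below the filter. Of the 5 other sodium channel genes tested, some of them not reported here, 0 passed in edgeR for SNI against sham mice. At an unadjusted p under 0.05 there were 3 of the 5, and DESeq2 called 2 and limma-voom 1.

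Proteins that bind, anchor or modify the channels were grouped in 4 further lists. Among 18 enzymes and binding proteins that act on sodium channels, 1 gene fell in SNI mice and 0 rose, and the median log2 fold change was 0.09. At an unadjusted p under 0.05 there were 9 of the 18, of which 7 were higher and 2 lower in SNI mice, and DESeq2 called 5 and limma-voom 6. Below Ptprz1 by p, Csnk2b gave 0.28 ± 0.07, Dpysl2 0.22 ± 0.06 and Prrt2 0.33 ± 0.09 (SE), with adjusted p-values in edgeR of 0.0684, 0.0952 and 0.102. The gene that fell was Ptprz1, a receptor phosphatase of glia that associates with sodium channels. It measured 163.6, 152.9 and 156.8 CPM in SNI mice, against 195.8, 212.6 and 229.4 CPM in sham mice. Every SNI mouse was below every sham mouse, as was the case for 10.9% of all tested genes. The log2 fold change was -0.43 ± 0.08 (SE), with an adjusted p of 0.0316 in edgeR. In R-HNK mice it measured 172.5, 154.3 and 191.1 CPM, and it did not pass for R-HNK against SNI mice. The call on Ptprz1 held in 10 of 18 alternatives and was lost with the striatal score as a covariate, at an adjusted p of 0.268, and without the 4 raised libraries, at 0.350. It was also lost without sham replicate 2 or 3, any 1 of the 3 SNI replicates, or R-HNK replicate 1, with adjusted p-values of up to 0.350 over all alternatives. Markers of astrocytes summed to 3503 to 3916 CPM in R-HNK mice, 3480 to 3700 CPM in SNI mice and 3711 to 4138 CPM in sham mice. Those of oligodendrocyte precursors, which also express Ptprz1, summed to 287 to 394 CPM in R-HNK mice, 293 to 306 CPM in SNI mice and 288 to 405 CPM in sham mice. Of the 8 astrocyte and 7 precursor markers 0 passed in edgeR for SNI against sham mice, none was at 0 in any library, and their part in Ptprz1 was not tested. At an unadjusted p under 0.05 there were 5 of the 8 astrocyte markers, all lower in SNI mice, with a list median of -0.34 on the log2 scale, and DESeq2 and limma-voom each called 3. There were 3 of the 7 precursor markers, all lower as well, with a list median of -0.30, of which DESeq2 called 1 and limma-voom 2.

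In the other 3 lists 0 genes passed in edgeR for SNI against sham mice. Among the 4 fibroblast growth factor homologous factors, which bind the tail of the alpha subunit and set its inactivation, Fgf11 gave -0.50 ± 0.16 (SE) with an adjusted p of 0.149, and it was the only one with an unadjusted p under 0.05 or a call by DESeq2 or limma-voom. Fgf13 gave 0.12 ± 0.07 (SE) and Fgf12 gave 0.12 ± 0.15 (SE). Among 18 proteins of the axon initial segment and the node, the scaffold Ank3, which anchors the channels, gave -0.15 ± 0.07 (SE) with an adjusted p of 0.351. None of these 18 had an unadjusted p under 0.05, and DESeq2 and limma-voom called 0. Among 11 RNA-binding and transcription regulators of neuronal genes, Rest, the repressor named for its action on Scn2a, gave -0.50 ± 0.20 (SE) with an adjusted p of 0.231 at a level of 3.96 ± 0.665 CPM in SNI mice and 5.58 ± 0.778 CPM in sham mice (SD, n = 3 each). It was the 1 regulator of the list with an unadjusted p under 0.05, and DESeq2 and limma-voom called 0.

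For R-HNK against SNI mice and for R-HNK against sham mice, 0 genes of the 4 lists passed in edgeR, DESeq2 or limma-voom. At an unadjusted p under 0.05, R-HNK against SNI mice gave Cntnap1, a protein of the paranode, with -0.22 ± 0.10 (SE), and Dpysl2, a collapsin response mediator, with -0.14 ± 0.06 (SE), with adjusted p-values in edgeR of 0.641 and 0.643. For R-HNK against sham mice, Ank3 with -0.18 ± 0.07 (SE), Ptprz1 with -0.30 ± 0.08 (SE), Prrt2 with 0.21 ± 0.09 (SE) and Csnk2b with 0.15 ± 0.07 (SE) had an unadjusted p under 0.05. Prrt2 is a presynaptic protein that restrains sodium channels, and Csnk2b is a subunit of casein kinase 2, which promotes the binding of channels to Ank3.

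The genes most like each member in their pattern over the 9 libraries were found by Pearson's correlation of log2 CPM among 11644 genes. They are given as a description, since the differences in cell type markers between the libraries enter every such correlation. For Scn3a these were Ust (r = 0.982), Tiam2 (0.979) and Dgkb (0.970). Ust measured 26.5, 27.5 and 25.6 CPM in R-HNK mice, 20.8, 17.9 and 23.1 CPM in SNI mice, and 23.6, 37.5 and 35.2 CPM in sham mice. For Scn4b they were Tmem47 (0.976), Spock3 (0.966) and Tgfa (0.965), each highest in sham replicates 2 and 3. For Scn1a they were Tmem196 (0.976), Brinp1 (0.969) and Krt222 (0.963). For Scn8a they were Ccdc148 (0.962), Chrm3 (0.945) and Sorbs2 (0.942), and for Scn2a Epg5 (0.982), Sgip1 (0.970) and Adnp (0.943). For Scn2b they were Dtx2 (0.945), Pigk (0.942) and Paqr9 (0.934), and for Scn3b Ccn3 (0.965), Epha6 (0.947) and Atp2b4 (0.915). No member was among the 3 genes most like another member.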

How the data were processed

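RNA of 9 prelimbic cortex samples was sequenced on an Illumina NovaSeq instrument, per the labels. The submitters' processing notes name HISAT2 2.0.5, featureCounts 1.5.0-p3 and mm10. In the deposited table the values are expected counts, 1 whole number per gene and library with no normalization, and its name gives StringTie. Strand and pair settings are not given in the sources used here. In R 4.3.3, genes were kept by filterByExpr (21765 genes, 99.96% of counts), scaled by TMM and tested with edgeR 4.0.16's robust quasi-likelihood fit over all 9 libraries with 1 mean per group. Adjustment was by Benjamini-Hochberg over all genes, and a gene passed at an adjusted p under 0.05. The standard error and 95% interval were worked back from the test statistic. Alternatives used DESeq2 1.42.0 and limma 3.58.1 (voom with quality weights), other scalings, no filter, a replicate block, the striatal marker score as a covariate, the 2 compared groups alone, and left-out libraries. Each sample is 1 of 3 mice per group, per the study's design. Lengths and positions came from GENCODE M21 on GRCm38. The fit was tested on simulated data. Members, lists and alternatives were chosen with earlier results of these data known. Named genes were all members, list genes that passed or else up to 4 with the smallest p, other sodium channel genes with counts (some of these, and some sequences, are not reported here), and the 3 genes most like each member (mean log2 CPM 2 or more).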

Additional observations from a re-analysis of the deposited data

How the results depend on the processing

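Over 18 alternatives per member and comparison, Scn3a for SNI against sham mice was lower in all of them and passed in 5, as given above. Scn4b passed in 1, and the 5 other members in 0. No member passed in an R-HNK comparison. Calls for SNI against sham mice, 233 of all genes, 0 of 7 members and 1 of 58 partner genes, moved as follows. All genes gave 370 with no filter, 90 with the striatal covariate, 86 without the 4 raised libraries, 1185 in DESeq2 and 1135 in limma-voom. Members gave 1 with upper quartile scaling, no filter, DESeq2 and limma-voom. Partner genes gave 0 with the covariate, 0 without the 4 libraries, 8 in DESeq2 and 8 in limma-voom. Leaving out 1 library at a time gave 60 to 1170 genes, 0 to 2 members and 0 to 8 partner genes, and the highest values came without sham replicate 1. For R-HNK against SNI mice, 26 genes became 53 with the 2 groups alone, 140 in DESeq2, 49 in limma-voom and 7 to 56 with 1 library left out. For R-HNK against sham mice, 1 gene became 25 without the 4 libraries, 10 in DESeq2, 0 in limma-voom and 1 to 11 with 1 library left out. The causes were not tested.

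With the replicate number as a block, 162 genes passed for SNI against sham mice, 16 for R-HNK against SNI mice and 2 for R-HNK against sham mice. Deviations from the group means had correlations of -0.104 to 0.0917 between same-numbered mice. Between mice of different numbers they reached -0.163 and 0.175. Such correlations cannot show that equal numbers carry nothing shared, and the labels do not say. No pairing was assumed.

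The following log2 fold changes changed sign, none of them past the threshold. With the striatal covariate, SNI against sham mice gave -0.10 for Scn1a, -0.083 for Scn8a and 0.078 for Scn4b, and R-HNK against SNI mice gave 0.030 for Scn2a and -0.44 for Scn4b. Without the 4 raised libraries, sham and R-HNK mice each have 1 library that is assumed to vary like the SNI libraries. There, SNI against sham mice gave -0.12 for Scn8a and 0.35 for Scn4b, and R-HNK against SNI mice gave 0.065 for Scn1a, 0.035 for Scn2a and -0.15 for Scn4b. R-HNK against sham mice gave 0.089 for Scn1a, 0.071 for Scn3a and 0.19 for Scn4b. Upper quartile scaling gave 0.0064 and limma-voom 0.022 for Scn2a in R-HNK against SNI mice. With 1 library left out, Scn8a ranged between -0.0007 and 0.16 for SNI against sham mice. For R-HNK against SNI mice, Scn2a ranged between -0.037 and 0.051 and Scn4b between -0.069 and 0.29. For R-HNK against sham mice, Scn1a ranged between -0.29 and 0.048, Scn2a between -0.080 and 0.0069, Scn8a between -0.12 and 0.037, Scn2b between -0.040 and 0.0007 and Scn3b between -0.032 and 0.093. The share of alpha RNA for R-HNK against sham mice then ranged between -1.75 and 1.19 points for Scn1a, -0.591 and 1.32 points for Scn2a, and -0.390 and 1.33 points for Scn8a. With 3 mice per group, small differences such as those of Scn2b lie within the intervals given.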
